A study of Mus musculus with 9 samples.

Results

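The genes described here are 30 genes of the citric acid cycle and of the control of pyruvate dehydrogenase, measured in mouse white gastrocnemius by RNA sequencing. They were chosen by symbol, from what their products are known to do, and are 30 of the 18062 genes in the deposited table. All 30 were found and all passed the filter on low values, as did 11032 genes in all. They comprise 17 enzyme subunits of the mitochondrial cycle, 4 core subunits of the pyruvate dehydrogenase complex, the 4 pyruvate dehydrogenase kinases, 4 cytosolic enzymes that handle the same metabolites, and pyruvate carboxylase.

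The pyruvate dehydrogenase complex sits in the mitochondrial matrix and turns pyruvate from glycolysis into acetyl-CoA, which citrate synthase joins to oxaloacetate at the start of the cycle. The cycle then oxidizes the acetyl carbons stepwise and passes electrons to the respiratory chain. The kinases shut the complex by phosphorylating its E1 alpha subunit, dedicated phosphatases reopen it, and in skeletal muscle this switch sets how much carbohydrate is oxidized relative to fat. White gastrocnemius is made mostly of fast glycolytic fibres, which hold fewer mitochondria than slow or oxidative fast fibres.

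The knock-out mice lack acid alpha-glucosidase (GAA), the lysosomal enzyme that breaks down glycogen, and are a model of Pompe disease. Their Gaa gene was disrupted at exon 6, with loxP sites placed in introns 5 and 6. The knock-out libraries ko1 to ko5 came from mice aged 5 months. The 4 wild-type libraries, wt1 to wt4, carry labels of 5 months for 2 and 6 months for the other 2, but their value columns name no age, so both ages were pooled. All mice are given as mixed BL6/129j background, kept by sibling matings for over 20 generations. Nothing in the labels says that each library is a separate animal, and the p-values measure only how much these libraries vary, which may be technical.

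Gaa itself averaged 3.44 ± 0.204 RPKM (reads per length of transcript and size of library; SD, n = 5) in knock-out and 49.4 ± 4.48 RPKM (SD, n = 4) in wild-type libraries. Every knock-out library lay below every wild-type one, and Gaa in knock-out muscle stood at 6.97% of its wild-type level. From the steps in the low values, each RPKM was worth an estimated 17.6 to 37.2 reads per kilobase in knock-out and 36.9 to 64.4 reads in wild-type libraries, so ko3 was the shallowest library and wt3 the deepest. RPKM totals were 349239 to 374056 in knock-out and 315337 to 327517 in wild-type libraries. Each comparison was therefore made on the values as deposited and again after centring each library on its median log ratio, which lowers every log2 difference by the same 0.13.

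Fast-fibre genes were abundant in all 9 libraries, as the tissue label implies, and 8 fast-fibre markers summed to 67380 to 76310 RPKM in knock-out and 64580 to 70910 RPKM in wild-type libraries. Of 10 slow-fibre markers 9 were called higher in knock-out muscle (8 after centring). Myh2, the myosin of oxidative fast fibres, stood at 308 to 472 RPKM in knock-out and 92.2 to 200.3 RPKM in wild-type libraries. Of 9 macrophage markers 7 were called higher, with sums of 49.3 to 86.1 RPKM in knock-out and 17.9 to 27.3 RPKM in wild-type libraries. Of 9 adipocyte markers 4 were called lower (7 after centring), and of 7 endothelial markers 5 were called lower (6 after centring). Among all tested genes 37.0% were called higher and 14.8% lower (25.1% and 24.9% after centring). No marker of these lists was at 0 in any library. In bulk muscle, fewer cells of a type and less RNA per cell cannot be told apart.

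A few of the genes differed strongly between the genotypes. As deposited, Idh2 was more than 2-fold higher in knock-out muscle and Idh1 was also higher, while Me1, Pcx, Suclg2, Pdhx and Dlat were the lowest relative to wild type. By limma on log2(RPKM + 0.1), at an adjusted p under 0.05 over all genes tested, 6 of the 30 genes rose and 9 fell. Pdk3 is counted among the 6, although its wild-type mean of 0.242 RPKM lay below the filter of 0.5 RPKM and it entered the fit only through the knock-out libraries. Over all tested genes 37.0% rose and 14.8% fell. The share that rose among the 30 is below that background and the share that fell is above it, and neither was tested as a set. After centring, 3 of the 30 were called higher, against 25.1% of all genes, and 14 were called lower, against 24.9% of all genes.

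The median log2 difference of the 30 genes was -0.00021 as deposited, beside 0.12 for all tested genes, and -0.13 after centring, beside -0.0032 for all. The change was under 0.25 on the log2 scale for 20 of the 30 genes (66.7%), beside 49.8% of all tested genes, and after centring for 16 (53.3%), beside 52.3% of all. In 6 genes all knock-out values lay above all wild-type values, where 30.9% of all tested genes did so, and in 6 all lay below, where 11.4% did. After centring these counts were 3 genes above and 12 below, beside 20.9% and 19.8% of all tested genes. Summed over the 30 genes, RPKM was 3307 to 3471 in knock-out and 3191 to 3444 in wild-type libraries, and the groups overlapped.

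**Figure D1:**
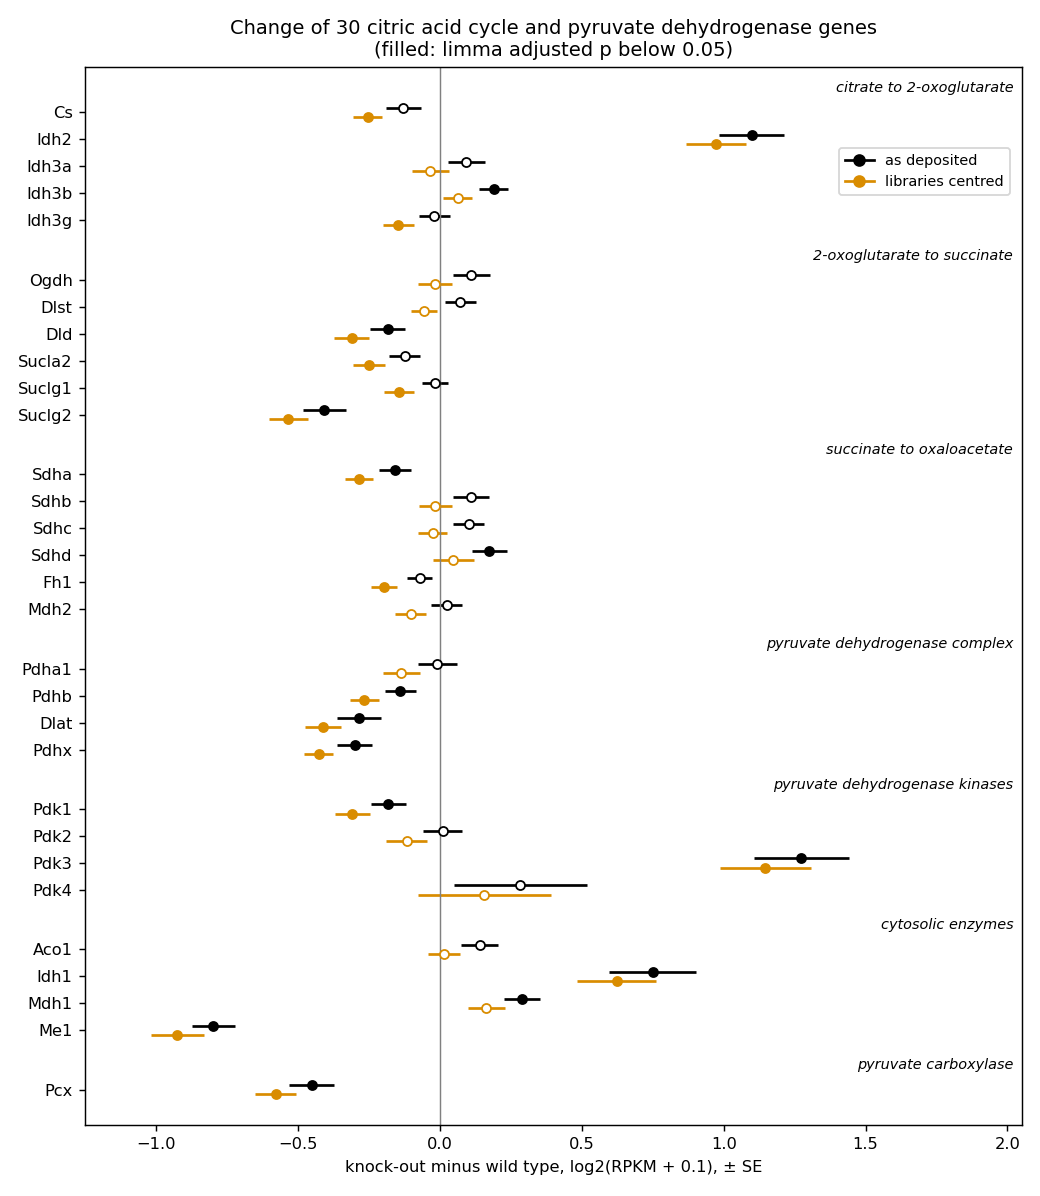
Difference between knock-out and wild type for each of the 30 genes, by role, on the log2(RPKM + 0.1) scale with the limma standard error, as deposited (black) and after centring each library (orange); filled points passed the adjusted p threshold. Idh2 and Pdk3 lie farthest to the right and Me1 farthest to the left on both scalings, while 20 of the 30 genes lie within 0.25 of 0 as deposited.

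On the log2(RPKM + 0.1) scale the largest changes belonged to Idh2, Pdk3 and Me1. The place of Pdk3 among them is uncertain, as it averaged 0.242 RPKM in wild-type libraries and entered the fit only through the knock-out libraries. The 250 bases before the transcription starts of these genes are printed to show how they compare in base composition. They are RefSeq windows on GRCm38.p6, read 5′ to 3′ on the gene's strand. Capitals mark the GC box GGGCGG on either strand, a short element common in promoters of widely expressed genes.
Idh2, chr7:80115351-80115600, minus strand: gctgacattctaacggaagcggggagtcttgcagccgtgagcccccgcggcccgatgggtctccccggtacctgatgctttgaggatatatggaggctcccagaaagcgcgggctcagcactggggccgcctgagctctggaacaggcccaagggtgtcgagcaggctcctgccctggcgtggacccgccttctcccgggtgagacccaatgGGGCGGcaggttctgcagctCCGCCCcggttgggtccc
Pdk3, chrX:93832151-93832400, minus strand: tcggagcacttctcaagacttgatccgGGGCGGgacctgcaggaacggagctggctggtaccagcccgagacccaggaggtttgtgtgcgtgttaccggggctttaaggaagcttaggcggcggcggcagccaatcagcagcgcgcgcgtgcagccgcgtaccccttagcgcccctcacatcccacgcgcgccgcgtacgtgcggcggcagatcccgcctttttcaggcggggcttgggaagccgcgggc
Me1 upstream start, chr9:86695915-86696164, minus strand: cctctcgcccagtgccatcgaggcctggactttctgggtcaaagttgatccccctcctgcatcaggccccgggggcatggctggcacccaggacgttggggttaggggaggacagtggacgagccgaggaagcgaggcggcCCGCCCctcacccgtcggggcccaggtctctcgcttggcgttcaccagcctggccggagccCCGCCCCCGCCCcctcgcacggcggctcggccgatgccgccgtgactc
Me1 downstream start, chr9:86687278-86687527, minus strand: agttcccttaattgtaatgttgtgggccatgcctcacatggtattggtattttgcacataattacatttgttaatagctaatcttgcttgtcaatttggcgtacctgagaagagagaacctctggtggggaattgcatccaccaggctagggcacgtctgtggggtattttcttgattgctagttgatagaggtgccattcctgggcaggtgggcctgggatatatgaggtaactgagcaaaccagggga
GC content was 67.2% before Idh2, 67.6% before Pdk3, 72.0% before the upstream start of Me1 and 46.0% before its downstream start. Windows were found for 28 of the 30 genes, 38 windows in all, and their median GC content was 61.4%, beside 52.4% over the 32851 windows of the table. A GC box stood in 55.3% of the windows of these genes, against 32.7% of all windows, and the CCAAT box (CCAAT, either strand) in 52.6%, against 33.8% of all. The oestrogen-related receptor element TNAAGGTCA, the FoxO element GTAAACA, the lysosomal gene element TCACGTGA and the GABP element CCGGAAGT were searched on both strands, and none of the 38 windows held any of them. They occurred in 1.14%, 3.17%, 0.785% and 2.88% of all windows. The GC box and CCAAT box were searched after the other 4 had given no match. The letters of these 6 elements do not contain one another, and CCAAT matches are left in lower case.

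In the steps that make 2-oxoglutarate from citrate, the NADP-dependent enzyme of the mitochondrion rose and the catalytic subunit of the NAD-dependent enzyme was not called. Idh2, which encodes the mitochondrial isocitrate dehydrogenase that yields NADPH, had 96.1, 108.2, 90.8, 87.7 and 116.4 RPKM in ko1 to ko5 and 45.3, 41.0, 59.0 and 41.8 RPKM in wt1 to wt4. All knock-out libraries lay above all wild-type ones, with ko5 the highest and wt3 the nearest from below. The log2 difference was 1.099 ± 0.114 (SE; limma adjusted p = 1.21e-05) as deposited and 0.97 ± 0.11 (SE; adjusted p = 2.11e-05) after centring.

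The 3 subunits of the NAD-dependent enzyme showed smaller differences. Idh3a, the catalytic subunit, averaged 179 ± 7.69 RPKM in knock-out and 168 ± 16.0 RPKM in wild-type libraries and was not called on either scaling, but was called higher as deposited without wt3 and wt4 (0.20, limma adjusted p = 0.0299). Idh3b, a regulatory subunit, averaged 209 ± 6.88 RPKM in knock-out and 184 ± 10.1 RPKM in wild-type libraries. It was called higher as deposited (log2 difference 0.19 ± 0.05 SE, limma adjusted p = 0.00915) but not after centring (0.06, adjusted p = 0.33) nor without wt1 and wt2 (0.15, adjusted p = 0.0982), and quantile normalization turned it round (-0.13, adjusted p = 0.0382). Nop56 overlaps it on the other strand. Idh3g, the other regulatory subunit, averaged 150 ± 7.53 RPKM in knock-out and 152 ± 7.72 RPKM in wild-type libraries and was not called as deposited but was called lower after centring (-0.15 ± 0.06 SE, limma adjusted p = 0.0443).

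Within a library, the log2 ratio of Idh2 to Idh3a was -1.06 to -0.63 in knock-out and -2.14 to -1.58 in wild-type libraries. The difference between group means was 1.01 (exact permutation test over all arrangements of the libraries, two-sided p = 0.00794, the smallest it can give; adjusted over 8 ratios, p = 0.0212). Idh2 made up 15.4 ± 1.57% (SD, n = 5) of the summed RPKM of the 5 isocitrate dehydrogenase genes in knock-out and 8.38 ± 1.08% (SD, n = 4) in wild-type libraries. Idh3g made up 23.1% in knock-out and 27.3% in wild-type libraries, with no overlap between the groups. As deposited, the sum over the 5 genes was 629 to 663 RPKM in knock-out and 519 to 605 RPKM in wild-type libraries, which also did not overlap. This sum depends on the scaling of the libraries and was not taken after centring.

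Idh2 stood beside fibre-type markers that also differed between the genotypes. The 6 defining slow-fibre markers summed to 164, 411, 284, 214 and 411 RPKM in ko1 to ko5 and 176, 76.3, 142.9 and 45.4 RPKM in wt1 to wt4. The 2 libraries with the highest slow-fibre sums, ko2 and ko5, had the highest Idh2. The sum was lower in ko1 than in wt1, while ko1 had more than 2-fold the Idh2 of wt1. Tnnt1 was the only member of the sum that was higher in ko1 (34.2 against 24.1 RPKM). Of the slow-fibre markers outside the sum, Atp2a2 (22.28 against 17.03 RPKM) and Myoz2 (27.01 against 21.25 RPKM) were higher in ko1. Tpm3 (12.44 against 15.5 RPKM) and Mb (966.5 against 975.5 RPKM) were lower there. Myh2, outside the sum, was also higher in ko1 (313 against 200.3 RPKM). The part of the fibre-type markers in the Idh2 difference was not tested.

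**Figure D2:**
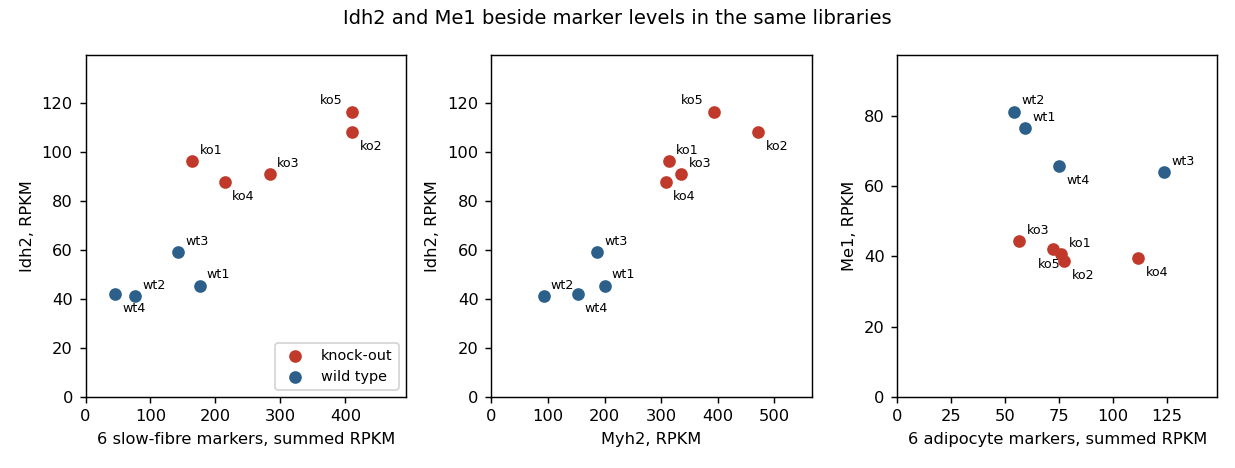
RPKM of Idh2 in each library against the summed RPKM of 6 defining slow-fibre markers (left) and against Myh2 (middle), and RPKM of Me1 against 6 defining adipocyte markers (right); red points are knock-out and blue points wild-type libraries. Idh2 is higher in ko1 than in wt1 at similar slow-fibre sums (164 and 176 RPKM), but Myh2 is also higher in ko1 (313 and 200.3 RPKM). Slow-fibre markers outside the sum differ both ways between these libraries. Me1 is lower in every knock-out library. The adipocyte sums of the groups overlap, and Cfd makes up most of them.

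Cs encodes citrate synthase, whose activity is a common index of mitochondrial content in muscle. It had 160 to 180 RPKM in knock-out and 168 to 199 RPKM in wild-type libraries, which overlapped. Knock-out minus wild type came to -0.13 ± 0.06 (SE; limma adjusted p = 0.102) as deposited and -0.26 ± 0.05 (SE; adjusted p = 0.00177) after centring. As deposited it was called lower without wt1 (-0.17, limma adjusted p = 0.0463), while without wt3 it was -0.089 (adjusted p = 0.271) and without wt3 and wt4 -0.036 (adjusted p = 0.686).

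Of the 6 genes that carry 2-oxoglutarate to succinate, none rose and 2 fell, and after centring 4 were called lower. Among all tested genes 37.0% rose and 14.8% fell as deposited, and 24.9% were called lower after centring. Ogdh and Dlst, the E1 and E2 parts of 2-oxoglutarate dehydrogenase, were not called on either scaling. Ogdh averaged 99.0 ± 8.68 RPKM in knock-out and 91.5 ± 3.45 RPKM in wild-type libraries, and Dlst averaged 78.7 ± 2.37 RPKM in knock-out and 75.0 ± 5.25 RPKM in wild-type libraries. Under quantile normalization Dlst was called lower (-0.15, limma adjusted p = 0.0473). Dld encodes the E3 subunit that this complex shares with pyruvate dehydrogenase, branched-chain ketoacid dehydrogenase and the glycine cleavage system.

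Dld had 75.5, 72.4, 84.9, 83.4 and 78.5 RPKM in ko1 to ko5 and 83.9, 87.0, 94.7 and 93.0 RPKM in wt1 to wt4. Only wt1 fell below the highest knock-out library. On the log2 scale the difference was -0.18 ± 0.06 (SE; limma adjusted p = 0.0252) as deposited and -0.31 ± 0.06 (SE; adjusted p = 0.00158) after centring. The call as deposited was lost without ko1, ko2, wt3 or wt4 (limma adjusted p = 0.0555, 0.0523, 0.0729 and 0.0677), and without both wt3 and wt4 the difference was -0.12 (adjusted p = 0.226).

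Succinyl-CoA ligase pairs a shared alpha subunit, Suclg1, with either an ATP-forming beta subunit, Sucla2, or a GTP-forming one, Suclg2. Suclg2 had 10.1, 11.8, 12.6, 11.2 and 12.3 RPKM in ko1 to ko5 and 13.9, 15.2, 16.0 and 16.5 RPKM in wt1 to wt4. The groups did not overlap, and the log2 difference was -0.41 ± 0.08 (SE; limma adjusted p = 0.000846) as deposited and -0.53 ± 0.07 (SE; adjusted p = 7.25e-05) after centring. Sucla2 averaged 139 ± 6.85 RPKM in knock-out and 151 ± 7.93 RPKM in wild-type libraries and was not called as deposited (-0.12, limma adjusted p = 0.0764), but was called lower after centring (-0.25, adjusted p = 0.00339) and without wt1 (-0.16, adjusted p = 0.0432). Without wt3 and wt4 it was -0.065 (limma adjusted p = 0.455). Suclg1 averaged 124.8 ± 3.78 RPKM in knock-out and 126.4 ± 4.09 RPKM in wild-type libraries and was not called as deposited but was called lower after centring (-0.14, limma adjusted p = 0.0425).

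Within a library, Suclg2 was lower relative to Sucla2 in knock-out muscle. Their log2 ratio was -3.72 to -3.47 in knock-out and -3.34 to -3.26 in wild-type libraries, with a difference of -0.28 (exact permutation test, two-sided p = 0.00794; adjusted over 8 ratios, p = 0.0212). Suclg2 made up 7.70 ± 0.592% (SD, n = 5) of the beta-subunit RPKM in knock-out and 9.22 ± 0.197% (SD, n = 4) in wild-type libraries. Suclg2 has a near-identical copy in the annotation, Gm15163, with 98.9% identity over 1302 bases, so reads could have been split between them.

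From succinate to oxaloacetate, 1 of 6 genes rose and 1 fell as deposited, beside 37.0% and 14.8% of all tested genes. The 4 subunits of succinate dehydrogenase, which is also respiratory complex II, differed in direction as deposited, while quantile normalization made all 4 log2 differences negative. Sdha, the flavoprotein subunit that oxidizes succinate, had 169, 182, 169, 185 and 182 RPKM in ko1 to ko5 and 184, 194, 214 and 201 RPKM in wt1 to wt4. The groups overlapped only where ko4 reached wt1, and the log2 difference was -0.16 ± 0.06 (SE; limma adjusted p = 0.0327) as deposited and -0.29 ± 0.05 (SE; adjusted p = 0.000627) after centring. The call as deposited was lost without ko1, ko3, wt2, wt3 or wt4 (limma adjusted p = 0.0687, 0.0662, 0.0539, 0.103 and 0.0715), and without both wt3 and wt4 the difference was -0.094 (adjusted p = 0.271).

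Sdhd, a membrane anchor of the complex, averaged 129 ± 5.73 RPKM in knock-out and 115 ± 8.64 RPKM in wild-type libraries. It was called higher as deposited (0.17 ± 0.06 SE, limma adjusted p = 0.0308) but not after centring (0.05, adjusted p = 0.614), quantile normalization turned it to -0.032 and removal of a length trend to -0.067, and the call was lost without ko1, ko3, ko4 or wt4 (limma adjusted p = 0.0656, 0.0535, 0.0638 and 0.0961). Sdhb, the iron-sulphur subunit, averaged 206 ± 13.4 RPKM in knock-out and 191 ± 13.0 RPKM in wild-type libraries. Sdhc, the other anchor, averaged 134 ± 6.71 RPKM in knock-out and 125 ± 5.99 RPKM in wild-type libraries. Neither was called on either scaling, though Sdhb was called lower under quantile normalization (-0.18, limma adjusted p = 0.0105) and with a length trend removed (-0.14, adjusted p = 0.0265).

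Fh1, fumarase, averaged 105 ± 2.37 RPKM in knock-out and 111 ± 3.81 RPKM in wild-type libraries and was not called as deposited but was called lower after centring (-0.20 ± 0.05 SE, limma adjusted p = 0.00419). Mdh2, the malate dehydrogenase of the mitochondrion, was the most abundant of the 30 genes in every library. It averaged 369 ± 20.8 RPKM in knock-out and 362 ± 11.7 RPKM in wild-type libraries and was not called on either scaling, but was called lower under quantile normalization (-0.19, limma adjusted p = 0.00952) and with a length trend removed (-0.20, adjusted p = 0.00325). Over the 17 mitochondrial cycle enzymes, 3 rose and 3 fell as deposited, and 1 was called higher and 8 lower after centring. Over all tested genes 37.0% rose and 14.8% fell as deposited, and 25.1% were called higher and 24.9% lower after centring.

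Of the 4 core genes of the pyruvate dehydrogenase complex, Pdhb, Dlat and Pdhx fell on both scalings, Pdha1 was not called and none rose. Among all tested genes 14.8% fell as deposited and 24.9% after centring. Dlat encodes the E2 acetyltransferase that builds the core, and it had 25.2, 27.9, 26.5, 28.5 and 28.4 RPKM in ko1 to ko5 and 29.7, 30.2, 37.3 and 36.6 RPKM in wt1 to wt4. The groups did not overlap, but wt1 and wt2 lay close to the knock-out libraries. Its log2 difference was -0.29 ± 0.08 (SE; limma adjusted p = 0.00948) as deposited and -0.41 ± 0.06 (SE; adjusted p = 0.000307) after centring, and without wt3 and wt4 it was -0.13 (adjusted p = 0.137).

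Pdhx encodes the E3-binding protein that anchors Dld to the core. It had 19.6, 21.3, 20.1, 20.7 and 20.4 RPKM in ko1 to ko5 and 23.0, 23.7, 26.9 and 27.4 RPKM in wt1 to wt4. The knock-out libraries were all lower and closely spaced. The log2 difference was -0.30 ± 0.06 (SE; limma adjusted p = 0.00173) as deposited and -0.43 ± 0.05 (SE; adjusted p = 4.43e-05) after centring. Without wt3 and wt4 it was -0.19 (limma adjusted p = 0.0297) as deposited.

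Pdhb, the E1 beta subunit, had 80.1, 81.5, 82.9, 81.6 and 74.4 RPKM in ko1 to ko5 and 82.2, 85.8, 93.7 and 91.5 RPKM in wt1 to wt4. Its log2 difference of -0.14 ± 0.05 (SE; limma adjusted p = 0.0492) was just past the threshold as deposited, and it was -0.27 ± 0.05 (SE; adjusted p = 0.00133) after centring. The call as deposited was lost without any 1 of ko1, ko2, ko4, ko5, wt2, wt3 or wt4 (limma adjusted p = 0.0759, 0.0587, 0.0651, 0.112, 0.0661, 0.142 and 0.123), and without both wt3 and wt4 the difference was -0.069 (adjusted p = 0.407). The Pdhb call as deposited was also lost with a pseudocount of 1 (limma adjusted p = 0.0504) and with no filter (adjusted p = 0.0545). The same held for the most abundant transcript alone (limma adjusted p = 0.0518) and for eBayes without trend (adjusted p = 0.0821). Gm6123 matches Pdhb with 97.0% identity over 1079 bases. Pdha1, the E1 alpha subunit that the kinases phosphorylate, averaged 187 ± 11.6 RPKM in knock-out and 189 ± 16.4 RPKM in wild-type libraries and was not called on either scaling, but was called lower under quantile normalization (-0.30, limma adjusted p = 0.00428). Map3k15 overlaps it on the other strand.

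In Dlat, Pdhx and Pdhb, wt3 and wt4 were higher than wt1 and wt2. This was not particular to them. Pdha1 had 171 and 178 RPKM in wt1 and wt2 and 202 and 204 RPKM in wt3 and wt4. Cs, Idh3a, Dlst, Dld, Sucla2, Suclg2, Sdha and Pcx were among other members with that order, and Me1 showed the reverse. Endothelial marker sums were 21.6 to 38.4 RPKM in knock-out libraries, against 51.1 and 48.1 RPKM in wt3 and wt4 and 31.0 and 36.7 RPKM in wt1 and wt2. Libraries wt3 and wt4 were also the deepest of the 9. Their part in the complex's values was not tested.

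**Figure D3:**
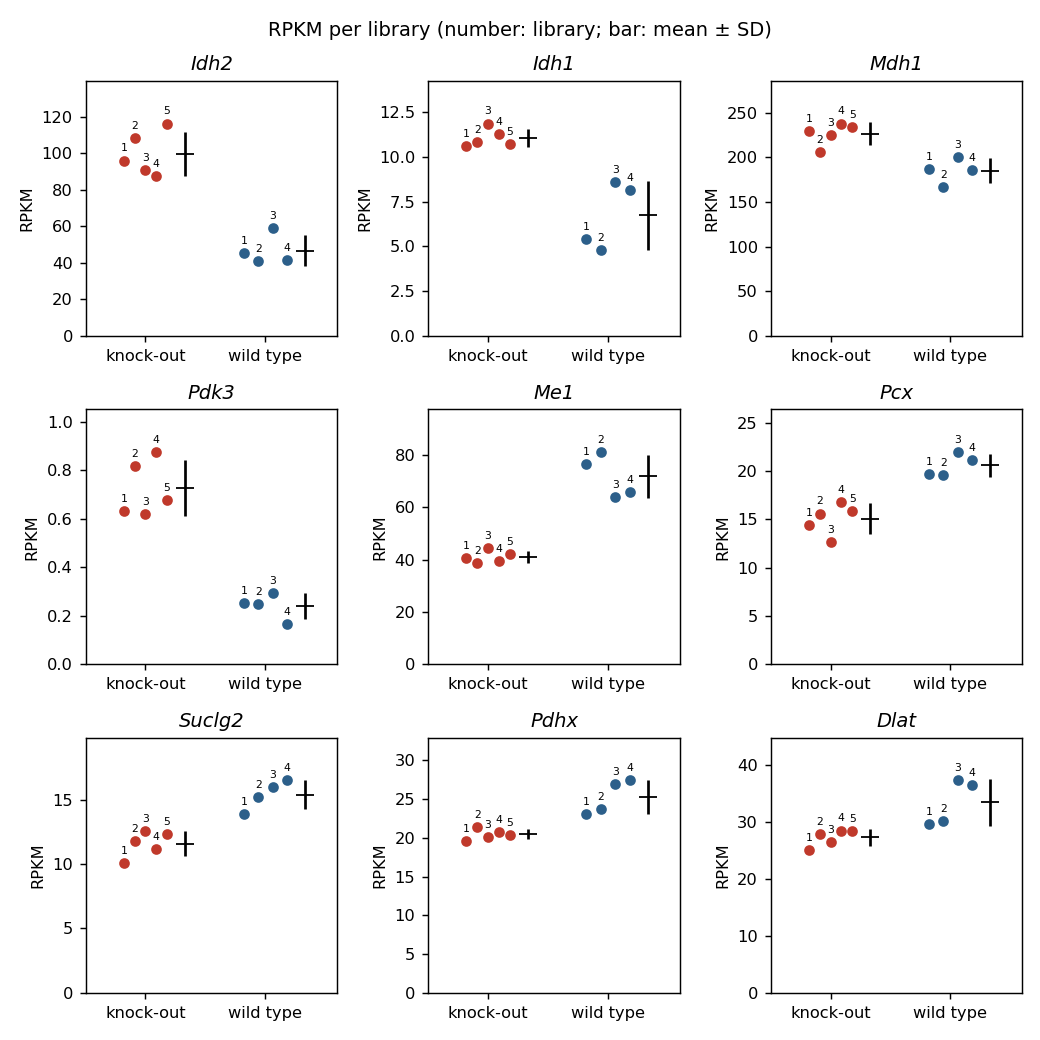
RPKM of 9 of the genes in each library, with knock-out libraries on the left, wild-type libraries on the right and the mean ± SD beside each group; the small numbers are library numbers. The 9 genes shown are all among those whose groups did not overlap as deposited, so their separation says nothing of the other genes. Knock-out libraries are higher for Idh2, Idh1, Mdh1 and Pdk3 and lower for Me1, Pcx, Suclg2, Pdhx and Dlat. Of all tested genes, 30.9% had all knock-out values above all wild-type values as deposited, and 11.4% had all below. After centring the groups overlapped for Mdh1.

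Of the 4 kinases that inhibit pyruvate dehydrogenase, 1 was called higher (Pdk3) and 1 lower (Pdk1), and the abundant pair was not called. Among all tested genes 37.0% were called higher and 14.8% lower as deposited (25.1% and 24.9% after centring). Pdk3, the scarcest, passed the filter only through the knock-out libraries. The Pdk1 call as deposited was lost on leaving out some single libraries, given below. Pdk4, the isoform known to be induced by fasting and fat oxidation in muscle, had 118, 203, 176, 236 and 232 RPKM in ko1 to ko5 and 214, 133, 104 and 189 RPKM in wt1 to wt4. The libraries of each genotype spread about as widely as each other and overlapped. Knock-out minus wild type came to 0.28 ± 0.23 (SE; limma adjusted p = 0.332) as deposited and 0.16 ± 0.23 (SE; adjusted p = 0.604) after centring, the widest error among the 30 genes. Leaving out 1 library moved the deposited value between 0.095 (without wt3) and 0.45 (without ko1), and it was not called in either case (limma adjusted p = 0.738 and 0.0931).

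Pdk2, the broadly expressed isoform, averaged 126.4 ± 11.7 RPKM in knock-out and 125.3 ± 5.16 RPKM in wild-type libraries and was not called on either scaling, but was called lower under quantile normalization (-0.21, limma adjusted p = 0.0127). Pdk4 exceeded Pdk2 in every library except ko1 and wt3. Their within-library log2 ratio averaged 0.57 ± 0.45 (SD, n = 5) in knock-out and 0.30 ± 0.51 (SD, n = 4) in wild-type libraries (exact permutation test, two-sided p = 0.397; adjusted over 8 ratios, p = 0.454), and the difference in means ran from 0.067 without wt3 to 0.46 without ko1. Relative to its substrate, the log2 ratio of Pdk2 to Pdha1 averaged -0.57 ± 0.22 (SD, n = 5) in knock-out and -0.59 ± 0.15 (SD, n = 4) in wild-type libraries (exact permutation test, two-sided p = 0.913; adjusted p = 0.913).

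Pdk3 was the least abundant of the 30 genes. It had 0.632, 0.818, 0.620, 0.875 and 0.678 RPKM in ko1 to ko5 and 0.255, 0.251, 0.294 and 0.168 RPKM in wt1 to wt4. The lowest knock-out library lay above the highest wild-type one. On the log2 scale the difference was 1.27 ± 0.17 (SE; limma adjusted p = 6.68e-05) as deposited and 1.147 ± 0.159 (SE; adjusted p = 0.00013) after centring. These values rest on an estimated 23.1 to 68.9 reads in knock-out and 16.7 to 40.0 reads in wild-type libraries, and Pdk3 passed the filter at a mean of 0.5 RPKM only through the knock-out libraries. With no filter on low values the difference was 1.27 with a limma adjusted p of 0.000227. Over the alternatives tried, the log2 difference of Pdk3 ran from 0.472 to 1.56.

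Pdk1, the isoform known to be induced at low oxygen, had 7.90, 8.48, 9.49, 8.78 and 9.25 RPKM in ko1 to ko5 and 9.92, 9.84, 10.2 and 9.90 RPKM in wt1 to wt4. All knock-out libraries were lower, with ko3 the closest to wild type. Its log2 difference was -0.18 ± 0.06 (SE; limma adjusted p = 0.0265) as deposited and -0.31 ± 0.06 (SE; adjusted p = 0.00143) after centring. The call as deposited was lost without ko1, ko2, wt1, wt3 or wt4 (limma adjusted p = 0.0517, 0.0505, 0.0525, 0.063 and 0.0508).

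Within a library, the log2 ratio of Pdk3 to Pdk2 was -7.49 to -6.88 in knock-out and -8.79 to -8.37 in wild-type libraries, a difference of 1.26 (exact permutation test, two-sided p = 0.00794; adjusted over 8 ratios, p = 0.0212). The ratios used no filter on low values, and the Pdk3 side of this one rests on the few reads given above. The ratio of Pdk1 to Pdk2 differed by -0.19 (exact permutation test, two-sided p = 0.143; adjusted p = 0.19). Pdk4 made up 57.9 ± 7.51% of the summed kinase RPKM in knock-out and 53.1 ± 8.65% in wild-type libraries, and Pdk3 only 0.222 ± 0.0270% in knock-out and 0.0847 ± 0.0289% in wild-type libraries (SD, n = 5 and 4). Total kinase RPKM was 258 to 373 in knock-out and 245 to 353 in wild-type libraries, which overlapped.

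**Figure D4:**
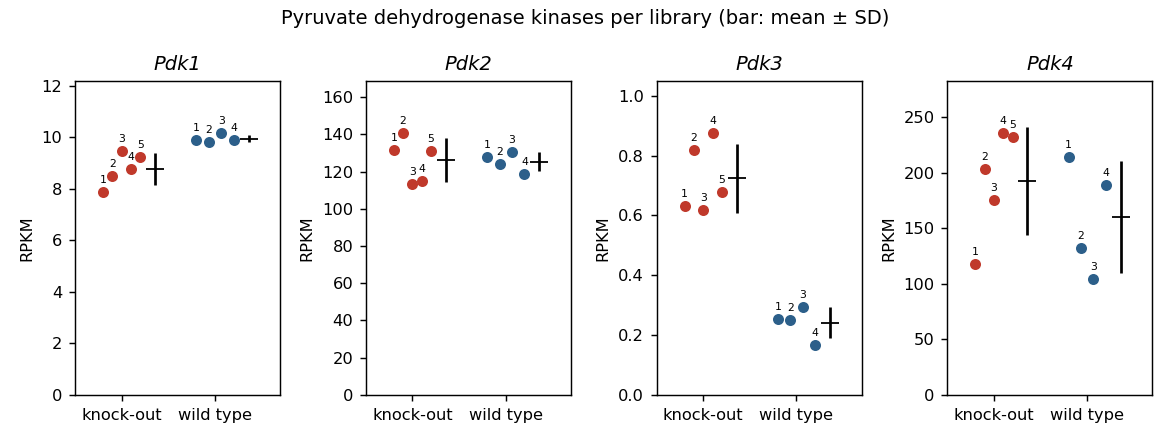
RPKM of the 4 pyruvate dehydrogenase kinases in each library, with knock-out libraries on the left and wild-type libraries on the right, and the mean ± SD beside each group; each panel has its own scale. Pdk3 is higher and Pdk1 lower in every knock-out library, whereas the values of Pdk2 and Pdk4 overlap.

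Of the 4 cytosolic enzymes, 2 rose and 1 fell as deposited, beside 37.0% and 14.8% of all tested genes. Idh1, the cytosolic isocitrate dehydrogenase that yields NADPH, had 10.6, 10.8, 11.9, 11.3 and 10.7 RPKM in ko1 to ko5 and 5.41, 4.79, 8.61 and 8.18 RPKM in wt1 to wt4. The knock-out libraries were tightly spaced above a wild-type group that split in pairs. The log2 difference was 0.75 ± 0.15 (SE; limma adjusted p = 0.00158) as deposited and 0.62 ± 0.14 (SE; adjusted p = 0.003) after centring. As deposited it was 0.39 (limma adjusted p = 0.00149) without wt1 and wt2 and 1.104 (adjusted p = 1.61e-06) without wt3 and wt4. The table lists 2 transcripts of Idh1, and as the authors split the reads between them the difference lay in NM_010497, with 9.67 RPKM in knock-out and 5.41 RPKM in wild-type libraries, against 1.40 RPKM in knock-out and 1.34 RPKM in wild-type libraries for the other. Macrophage marker sums, given above, were higher in every knock-out library than in any wild-type one, and their part in the Idh1 and Pdk3 values was not tested.

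The log2 ratio of Idh1 to Idh2 averaged -3.15 ± 0.22 (SD, n = 5) in knock-out and -2.80 ± 0.34 (SD, n = 4) in wild-type libraries, and the groups overlapped (exact permutation test, two-sided p = 0.103; adjusted over 8 ratios, p = 0.165). The 2 NADP-dependent genes together summed to 99.0 to 127.2 RPKM in knock-out and 45.8 to 67.6 RPKM in wild-type libraries. Idh2 supplied 89.9 ± 1.38% of that sum in knock-out and 87.4 ± 2.74% in wild-type libraries (SD, n = 5 and 4).

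Mdh1, the cytosolic malate dehydrogenase of the malate-aspartate shuttle, had 230, 205, 225, 238 and 234 RPKM in ko1 to ko5 and 187, 167, 200.3 and 186 RPKM in wt1 to wt4. The knock-out libraries were all higher, although ko2 came close to wt3. Knock-out minus wild type came to 0.29 ± 0.06 (SE; limma adjusted p = 0.00257) as deposited and 0.16 ± 0.07 (SE; adjusted p = 0.0564) after centring, where the call was lost, and -0.01 under quantile normalization. Within a library, the log2 ratio of Mdh1 to Mdh2 averaged -0.70 ± 0.15 (SD, n = 5) in knock-out and -0.97 ± 0.09 (SD, n = 4) in wild-type libraries (exact permutation test, two-sided p = 0.0397; adjusted over 8 ratios, p = 0.0794). Wdpcp overlaps Mdh1 on the other strand. Aco1, the cytosolic aconitase that doubles as an iron-regulatory protein, averaged 4.75 ± 0.265 RPKM in knock-out and 4.30 ± 0.218 RPKM in wild-type libraries and was not called on either scaling, though it passed as deposited without ko3 (0.17, limma adjusted p = 0.0464).

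Me1, the cytosolic malic enzyme that turns malate into pyruvate and yields NADPH, fell the most of the 30 genes. It had 40.6, 38.7, 44.4, 39.5 and 42.2 RPKM in ko1 to ko5 and 76.6, 81.2, 63.9 and 65.7 RPKM in wt1 to wt4. The groups were far apart, with wt1 and wt2 highest. On the log2 scale the difference was -0.80 ± 0.08 (SE; limma adjusted p = 6.05e-06) as deposited and -0.93 ± 0.09 (SE; adjusted p = 1.31e-05) after centring. Both deposited transcripts were lower, NM_008615 with 37.7 RPKM in knock-out and 66.1 RPKM in wild-type libraries, and NM_001198933 with 3.42 RPKM in knock-out and 5.69 RPKM in wild-type libraries. Me1 has 3 near-identical copies in the annotation, Gm7049, Gm48795 and Gm7329, and A330041J22Rik overlaps it on the other strand.

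Pcx, pyruvate carboxylase, makes oxaloacetate from pyruvate and so refills the cycle. It had 14.4, 15.6, 12.7, 16.8 and 15.8 RPKM in ko1 to ko5 and 19.7, 19.6, 22.0 and 21.1 RPKM in wt1 to wt4. The groups did not overlap, and the log2 difference was -0.45 ± 0.08 (SE; limma adjusted p = 0.000588) as deposited and -0.58 ± 0.07 (SE; adjusted p = 5.72e-05) after centring.

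Me1 and Pcx are also abundant in fat cells, and adipocyte markers moved with the genotype in part. The 9 adipocyte markers summed to 253, 269, 209, 325 and 245 RPKM in ko1 to ko5 and 293, 256, 403 and 328 RPKM in wt1 to wt4. The 6 defining ones summed to 56.5 to 111.6 RPKM in knock-out and 54.2 to 123.5 RPKM in wild-type libraries. Most of that sum was Cfd, which averaged 52.5 RPKM in knock-out and 39.6 RPKM in wild-type libraries and was not called. Of the 6, Lep, Plin1 and Cidec were called lower as deposited and Adipoq too after centring. Me1 was lowest among wild-type libraries in wt3, which had the highest adipocyte sum. Lep was also lowest there, with 2.98 RPKM in wt3 and 6.78 RPKM in wt1. Among wild-type libraries Lep and Cidec were highest in wt1, and the other adipocyte markers were highest in wt3. Pcx, with 19.7, 19.6, 22.0 and 21.1 RPKM in wt1 to wt4, ranked these libraries as the sum of the 9 adipocyte markers did. Among knock-out libraries Pcx and that sum were both highest in ko4 and lowest in ko3, but ko5 had more Pcx than ko2 and a lower sum. The part of the adipocyte markers in the Me1 and Pcx values was not tested.

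**Figure D5:**
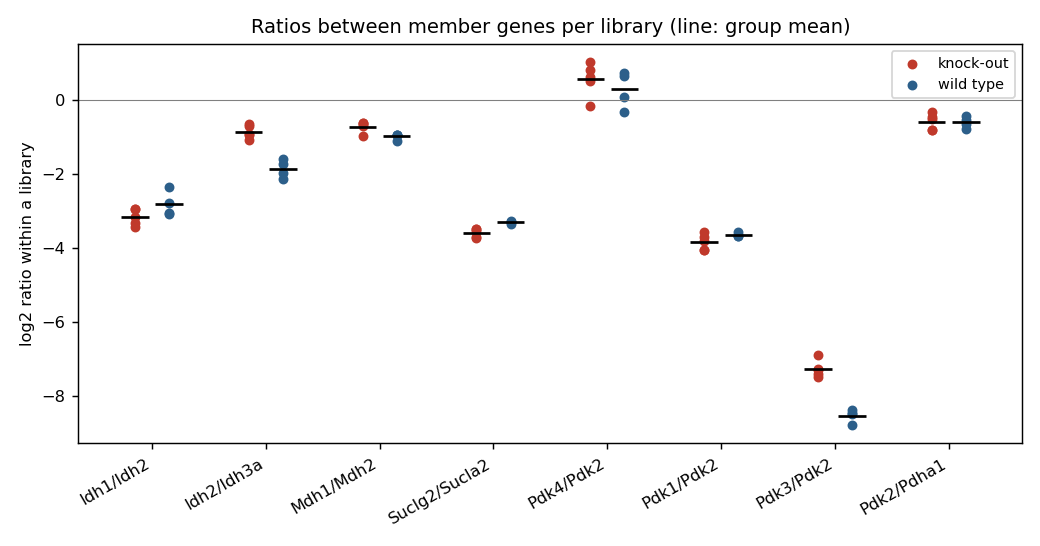
Log2 ratio of 2 genes within each library for 8 pairs, with knock-out libraries in red to the left of wild-type libraries in blue and the group means as lines. The groups are separate for Idh2/Idh3a, Suclg2/Sucla2 and Pdk3/Pdk2, and overlap for the other 5 ratios.

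A list of 50 further genes around the pathway, chosen for their known roles, also held genes that moved both ways. Of the 47 that passed the filter, 9 rose and 14 fell as deposited, and 6 were called higher and 18 lower after centring, beside the shares of all genes given above (37.0% and 14.8% as deposited, 25.1% and 24.9% centred). Their median log2 difference was -0.02 as deposited and -0.14 after centring.

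The phosphatase that reactivates pyruvate dehydrogenase showed its largest difference in the regulatory subunit. Pdpr, that subunit, had 12.8, 15.6, 15.3, 16.6 and 17.7 RPKM in ko1 to ko5 and 24.6, 26.1, 25.6 and 26.9 RPKM in wt1 to wt4, and its log2 difference was -0.73 ± 0.08 (SE; limma adjusted p = 2.43e-05). All knock-out libraries lay well below the wild-type ones. Pdp1, the main catalytic subunit in muscle, averaged 22.3 ± 2.19 RPKM in knock-out and 24.7 ± 1.90 RPKM in wild-type libraries and was not called as deposited but was called lower after centring (-0.27, limma adjusted p = 0.0178). Pdp2, the other catalytic subunit, had 0.682 to 0.810 RPKM in knock-out and 0.588 to 1.64 RPKM in wild-type libraries and was called lower after centring (-0.60, limma adjusted p = 0.0409) and as deposited without wt2 (-0.74, adjusted p = 0.00519), while without wt3 and wt4 its difference was 0.03.

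Of the 2 subunits of the mitochondrial pyruvate carrier, Mpc1, listed as Brp44l, averaged 168 ± 6.34 RPKM in knock-out and 165 ± 9.80 RPKM in wild-type libraries and was not called on either scaling, but was called lower under quantile normalization (-0.27, limma adjusted p = 0.00152). Mpc2, listed as Brp44, averaged 90.8 ± 5.95 RPKM in knock-out and 106 ± 10.2 RPKM in wild-type libraries and fell (-0.23 ± 0.07 SE, limma adjusted p = 0.0208). That call was lost without ko5, wt3 or wt4 (limma adjusted p = 0.0506, 0.0613 and 0.0655).

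Of the 7 tested genes of the malate-aspartate shuttle and transamination, 3 rose, 1 fell and 3 were not called as deposited. Among all tested genes 37.0% rose and 14.8% fell. Gpt2, the mitochondrial alanine aminotransferase, averaged 35.2 ± 2.06 RPKM in knock-out and 64.3 ± 8.48 RPKM in wild-type libraries (log2 difference -0.86 ± 0.08 SE, limma adjusted p = 6.84e-06). Its cytosolic counterpart Gpt went the other way, with 11.3 ± 0.99 RPKM in knock-out and 7.33 ± 0.95 RPKM in wild-type libraries (0.62 ± 0.09 SE, limma adjusted p = 0.000169). The other two that rose, named after their values were seen, were Got1, the cytosolic aspartate aminotransferase (0.54, limma adjusted p = 0.000458), and Slc25a11, the mitochondrial 2-oxoglutarate carrier (0.37, adjusted p = 0.000473), which was not called under quantile normalization (0.14, adjusted p = 0.0595).

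Of 5 genes of branched-chain ketoacid dehydrogenase and its control, 3 fell and none rose, beside 14.8% and 37.0% of all tested genes as deposited. The subunit genes Bckdha, Bckdhb and Dbt had log2 differences of -0.44, -0.56 and -0.73, and the kinase and phosphatase genes of the complex were not called on either scaling. Of 7 genes that feed or drain the cycle, 2 rose and 2 fell as deposited. Pcca and Pccb, the subunits of propionyl-CoA carboxylase, fell by 0.60 and 0.40 on the log2 scale. Mut, the mutase later in the propionyl-CoA route, and Me2, a mitochondrial malic enzyme, were named after their values were seen. Mut was called higher as deposited (0.21, limma adjusted p = 0.0114) but not after centring (0.08, adjusted p = 0.294). Me2 was called higher on both scalings (0.42, limma adjusted p = 0.00821 as deposited), but not as deposited without wt1 and wt2 (0.29, adjusted p = 0.0952).

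The remaining genes named by the same rule were Nnt, Ireb2, Csl and Ppargc1a. Nnt, the proton-driven transhydrogenase that makes NADPH in mitochondria, averaged 29.6 ± 3.67 RPKM in knock-out and 19.3 ± 2.25 RPKM in wild-type libraries (0.61 ± 0.10 SE, limma adjusted p = 0.000311). Ireb2, an iron-regulatory protein, averaged 4.47 ± 0.412 RPKM in knock-out and 5.76 ± 0.521 RPKM in wild-type libraries (-0.36 ± 0.08 SE, limma adjusted p = 0.00408). Csl, a citrate synthase-like gene, averaged 29.8 ± 2.49 RPKM in knock-out and 33.9 ± 2.31 RPKM in wild-type libraries, and its call (-0.19 ± 0.07 SE, limma adjusted p = 0.0438) was lost without any 1 of 7 libraries, all but ko2 and wt2 (adjusted p = 0.0537 to 0.125).

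Ppargc1a, the coactivator that drives mitochondrial gene expression, had 4.23, 4.13, 5.30, 4.26 and 5.46 RPKM in ko1 to ko5 and 6.35, 6.06, 6.11 and 5.71 RPKM in wt1 to wt4. All knock-out libraries were lower, and the log2 difference was -0.38 ± 0.09 (SE; limma adjusted p = 0.00555) as deposited and -0.50 (adjusted p = 0.00141) after centring. With the most abundant transcript alone it was -0.33 (limma adjusted p = 0.0606). Esrra, a nuclear receptor that works with this coactivator, averaged 29.8 ± 3.94 RPKM in knock-out and 27.9 ± 2.76 RPKM in wild-type libraries and was not called on either scaling.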

How the data were processed

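Total RNA of white gastrocnemius was extracted with Trizol and made into libraries with the Illumina TruSeq RNA kit, per the labels' protocols. The authors deposited 1 table of RPKM values, in which lines are RefSeq transcripts and columns are single libraries. Per the submitters' processing notes, TopHat 1.3.2, Partek 6.6 and Bowtie 0.12.7.0 were used with build mm9. How strand was handled, what was filtered and which tool did what is not given in the sources used here. Reads of genes that overlap on opposite strands cannot be told apart.

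RPKM of the 23665 transcripts was added up by symbol, which gave 18062 genes, 3517 of them with more than 1 transcript. Of 37 symbols that had turned into dates, 36 were restored by accession. Genes with a mean of at least 0.5 RPKM in all 9 libraries together entered limma 3.58.1 (R 4.3.3) as log2(RPKM + 0.1) (lmFit, eBayes with trend, two-sided, Benjamini-Hochberg adjustment over all genes tested, threshold 0.05), 5 knock-out against 4 wild-type libraries. Fold changes on this scale understate those of low genes. Centring subtracted from each library its median log ratio to the gene means. Within-library ratios had an exact permutation test over every arrangement of the libraries, adjusted over 8 ratios. The fit and the permutation test were tested on simulated data.

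Depth was estimated from whole-read steps, and of values up to 5 reads 71.0% to 74.6% fell no more than 0.1 from a whole read, too few to recover counts, so no count model was run. Sequences with at least 95% identity over 200 bases elsewhere in GRCm38 transcripts were treated as copies. Promoters are 250 bases before RefSeq starts on GRCm38.p6, matched by symbol. All value columns were used. The main fits did not pair libraries by the numbers in the column names.

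The members and lists were chosen with earlier results of these data known. All 30 members are described. Of the 50 further pathway genes, those called the same way on both scalings (20) were ranked by centred adjusted p and the first 12 named, along with Pdp1, Pdp2, Mpc1, Mpc2, Ppargc1a and Esrra whatever their result. A further gene meant for that second group is not reported here, and 4 genes were named after their values were seen. Alternatives tried were pseudocounts of 1 and 0.01, no filter, a minimum of 2 RPKM, centring, quantile normalization, removal of a length trend, the most abundant transcript, eBayes without trend, a replicate block and leaving out libraries. Tables used pandas 2.3.3, scipy 1.17.1 and numpy 2.4.6 under Python 3.11.15, and figures used matplotlib 3.10.9.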

Additional observations from a re-analysis of the deposited data

Results flagged for a closer look

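In 76 groups of values checked (each gene or ratio in each genotype), 4 held a single library set apart from the rest of its group by more than Dixon's 95% critical value, where chance alone gives about 1 in 20. Idh3g had 136.3 RPKM in ko3, the shallowest library, against 150.8 to 154.3 RPKM in the other knock-out libraries. Mdh2 had 379.9 RPKM in wt3, the deepest library, against 355.2 to 358.8 RPKM in the other wild-type libraries. The log2 ratio of Mdh1 to Mdh2 was -0.9623 in ko2, against -0.6975 to -0.6049 in the other knock-out libraries, and -1.103 in wt2, against -0.9315 to -0.9229 in the other wild-type libraries.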

How the results depend on the processing

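The scaling of the libraries decided most of the counts. Centring gave 3 of the 30 genes higher and 14 lower, beside 25.1% and 24.9% of all genes. Quantile normalization gave 3 higher and 20 lower, and removal of a length trend 3 higher and 16 lower. Further pathway genes called higher numbered 5 under quantile normalization and 5 with the length trend removed. For these 2 settings the shares of all genes called higher and lower are not given here, so their counts have no background beside them. Under centring the log2 difference turned negative for Idh3a (-0.034), Ogdh (-0.016), Dlst (-0.055), Sdhb (-0.016), Sdhc (-0.025), Mdh2 (-0.10), Pdk2 (-0.12), Brp44l (-0.10) and Esrra (-0.033). Under quantile normalization it did so for Idh3a (-0.19), Idh3b (-0.13), Ogdh (-0.12), Dlst (-0.15), Sdhb (-0.18), Sdhc (-0.12), Sdhd (-0.032), Mdh2 (-0.19), Pdk2 (-0.21), Mdh1 (-0.012), Brp44l (-0.27) and Esrra (-0.086). With the length trend removed it did so for Idh3a (-0.054), Idh3b (-0.018), Dlst (-0.056), Sdhb (-0.14), Sdhc (-0.011), Sdhd (-0.067), Mdh2 (-0.20), Pdk2 (-0.15), Brp44l (-0.24) and Esrra (-0.064). The cause was not tested. Idh2 and Idh1 were called higher and Me1, Pcx, Suclg2 and Pdhx lower under every alternative run. Pdk3 fell below the filter at a mean of 2 RPKM and without any 1 knock-out library, so leaving out those libraries says nothing of its call.

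Leaving out 1 library at a time gave 5030 to 5548 genes called. It gave 4 to 6 of the 30 genes higher and 5 to 10 lower (5 without ko1, wt3 or wt4), and 2 to 3 higher and 12 to 14 lower after centring. Further pathway genes numbered 9 to 11 higher and 10 to 14 lower. The shares of all genes called higher and lower on leaving out a library are not given here, so these counts have no background beside them. Differences near 0 changed sign, with -0.039 to 0.015 for Idh3g, -0.0062 to 0.050 for Mdh2, -0.055 to 0.029 for Pdha1, -0.031 to 0.046 for Pdk2 and -0.018 to 0.046 for Brp44l. The ratios ran from 0.91 to 1.09 for Idh2/Idh3a, -0.31 to -0.25 for Suclg2/Sucla2, 1.17 to 1.32 for Pdk3/Pdk2 and -0.048 to 0.078 for Pdk2/Pdha1. With fewer libraries the exact test has fewer arrangements, and the adjusted p of the first 3 ratios reached up to 0.0952; all 3 kept their call only without wt1.

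Leaving out wild-type libraries in pairs was chosen after seeing the data, and its counts of genes called likewise have no share of all genes beside them. Without wt1 and wt2, 5 further pathway genes were called higher, Idh3a (-0.018), Dlst (-0.012) and Brp44l (-0.028) changed sign, and the first 3 ratios were 1.02, -0.30 and 1.32. Without wt3 and wt4, 4 of the 30 genes were lower, Idh3g (0.014), Suclg1 (0.0097), Pdha1 (0.10), Pdk2 (-0.00041) and Pdp2 (0.034) and the ratio Pdk2/Pdha1 (-0.10) changed sign, and the first 3 ratios were 1.00, -0.26 and 1.21. With eBayes without trend Sdha, Sdhd, Pdhb and Csl lost their calls as deposited (limma adjusted p = 0.0556, 0.0532, 0.0821 and 0.0675). With the replicate block by column number the Pdk2 difference was -0.0060, and Sdha, Sdhd, Pdhb, Pdk1, Brp44, Csl and Mut lost their calls as deposited. The deviations of same-numbered libraries correlated at -0.138 to 0.147. Libraries with different numbers were not compared, so these values cannot decide whether the numbers mark pairs.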
